A study of Homo sapiens with 2 samples.

Results

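The genes described here are the human ZNF genes with clear expression in HGC-27 cells. They are the gene names made of ZNF, a number and at most 1 letter chosen by a level of at least 5 FPKM, a fragment count corrected for transcript length and sequencing depth, in at least 1 of 2 libraries. Of 56544 gene names, 556 were ZNF names of this form, and 187 of those met the level rule. The other ZNF names divided into 60 listed at 0 in both libraries, 105 with a highest value above 0 and under 1 FPKM, and 204 with a highest value from 1 to under 5 FPKM. The FPKM values that chose the genes are the values compared below, so every comparison is a description.

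HGC-27 is a human gastric cancer cell line, established from a tumour graded as undifferentiated. The SOS cells received the peptide that the sample title calls SOS and the series title calls SHAP, and the Control cells received a control peptide. In both groups the peptide was carried by PDPA micelles for 48 h, and the cells were kept in RPMI medium with serum. Each group is a single library. Differences could therefore not be set against replicates or tested, and the spread between cultures is unknown.

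ZNF genes encode proteins with zinc fingers, small folds held by a zinc ion. In the C2H2 type, which most of these proteins carry in tandem arrays, neighbouring fingers read neighbouring bases of DNA. Many also carry a KRAB box, which recruits the corepressor TRIM28 and, through it, the histone methyltransferase SETDB1 and the HP1 proteins, and silences transposable elements and genes. Others bind RNA, ribosomes or the mitotic spindle, and a number of KRAB genes stand in clusters on chromosome 19.

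SOS and Control values were taken as the FPKM columns are named. In the authors' deposited table the log2 ratio is above 0 for genes with more FPKM under Control. It may be a ratio of Control to SOS, or the FPKM column names may be swapped, and with swapped names all directions below would turn round. The depth was estimated at 2.56e+07 fragments for the SOS library and 2.94e+07 for the Control library, and the estimated fragments per ZNF gene had a median of 325 in SOS and 353 in Control. The label of an epithelial tumour line met low epithelial markers: KRT8 stood at 0.353 FPKM in SOS and 0.797 FPKM in Control, EPCAM at 0.599 FPKM in SOS and 0.238 FPKM in Control, KRT18 and CDH1 at no more than 0.066 FPKM, and TFF1 and MUC5AC at 0 in both. The intestinal regulator CDX2 was at 4.15 FPKM in SOS and 3.39 FPKM in Control. Mesenchymal markers were mixed. The filament gene VIM was at 3140 FPKM in SOS and 3161 FPKM in Control, and ZEB1 at 23.9 FPKM in SOS and 12.9 FPKM in Control. CDH2 was at only 0.123 FPKM in SOS and 0.156 FPKM in Control. The leukocyte genes PTPRC and CD3E and the endothelial genes PECAM1 and VWF did not exceed 0.041 FPKM. The leukocyte gene CD68 was at 0.287 FPKM in SOS and 0.311 FPKM in Control.

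The promoters of 4 of the genes are shown as examples and are not a sample of the 187. ZNF277 and ZNF283 are higher in SOS and hold a letter match to the motif bound by ZNF143, itself one of the 187. ZNF428, with the lowest log2 ratio of all 187, and ZNF143 hold none. The pairing is not a rule. ZNF518A, with the highest log2 ratio, and ZNF248, ZNF117 and ZNF711 are higher in SOS, and no match was found for them. ZNF74 holds a match and is lower in SOS. Each line gives the 250 bases before a gene start in RefSeq (GRCh38.p14), 5′ to 3′ on the gene's strand, with the match in capitals. The windows are chr7:112206445-112206694 (plus strand), chr19:43827071-43827320 (plus strand), chr19:43619630-43619879 (minus strand) and chr11:9460762-9461011 (plus strand). In ZNF277 the match reads on the opposite strand.
ZNF277: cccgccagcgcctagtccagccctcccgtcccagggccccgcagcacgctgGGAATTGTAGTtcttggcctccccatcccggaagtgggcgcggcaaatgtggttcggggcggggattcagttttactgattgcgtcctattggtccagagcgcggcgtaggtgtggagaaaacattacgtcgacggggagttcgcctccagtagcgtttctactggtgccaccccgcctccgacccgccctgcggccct
ZNF283: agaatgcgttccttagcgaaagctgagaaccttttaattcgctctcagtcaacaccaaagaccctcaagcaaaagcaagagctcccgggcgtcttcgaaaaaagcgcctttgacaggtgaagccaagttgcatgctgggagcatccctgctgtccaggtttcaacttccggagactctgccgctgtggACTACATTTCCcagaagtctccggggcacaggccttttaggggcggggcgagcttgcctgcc
ZNF428: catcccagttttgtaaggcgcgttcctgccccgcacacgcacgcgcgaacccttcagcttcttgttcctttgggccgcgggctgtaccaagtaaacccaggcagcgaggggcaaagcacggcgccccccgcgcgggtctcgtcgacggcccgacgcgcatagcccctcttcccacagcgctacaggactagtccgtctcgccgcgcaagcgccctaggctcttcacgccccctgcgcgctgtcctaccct
ZNF143: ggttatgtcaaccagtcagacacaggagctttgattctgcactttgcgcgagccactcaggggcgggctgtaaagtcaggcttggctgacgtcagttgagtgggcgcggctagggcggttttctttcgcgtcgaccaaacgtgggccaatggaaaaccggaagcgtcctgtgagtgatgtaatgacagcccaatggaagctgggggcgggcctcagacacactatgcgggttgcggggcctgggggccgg

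As a group the ZNF genes stood slightly higher in the SOS library relative to other genes. Their summed level was 2407 FPKM in SOS and 2336 FPKM in Control, which was 0.318% of all deposited FPKM in SOS and 0.264% in Control. The median level was 9.01 FPKM in SOS and 7.93 FPKM in Control. The measure of difference is log2((SOS FPKM + 1)/(Control FPKM + 1)), which understates differences of low genes. Its median over the 187 genes was 0.08, with quartiles of -0.16 and 0.36, against -0.13 over all 10015 genes of at least 5 FPKM in either library. The distance between those medians, 0.22, was 0.20 when both libraries were scaled to the same sum. That scaling also admitted more genes, and the medians were then 0.30 over 205 ZNF genes and 0.10 over 10331 genes.

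The ratio was above 0 in 108 of the 187 ZNF genes (57.8%), against a background of 37.9% of all 10015 genes. A difference of 2-fold on this scale, the size rule used below, was passed upward by 6 ZNF genes (3.21%), against a background of 2.73%. No ZNF gene passed it downward, against a background of 1.26%. The share past the rule upward was thus near the background.

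**Figure D1:**
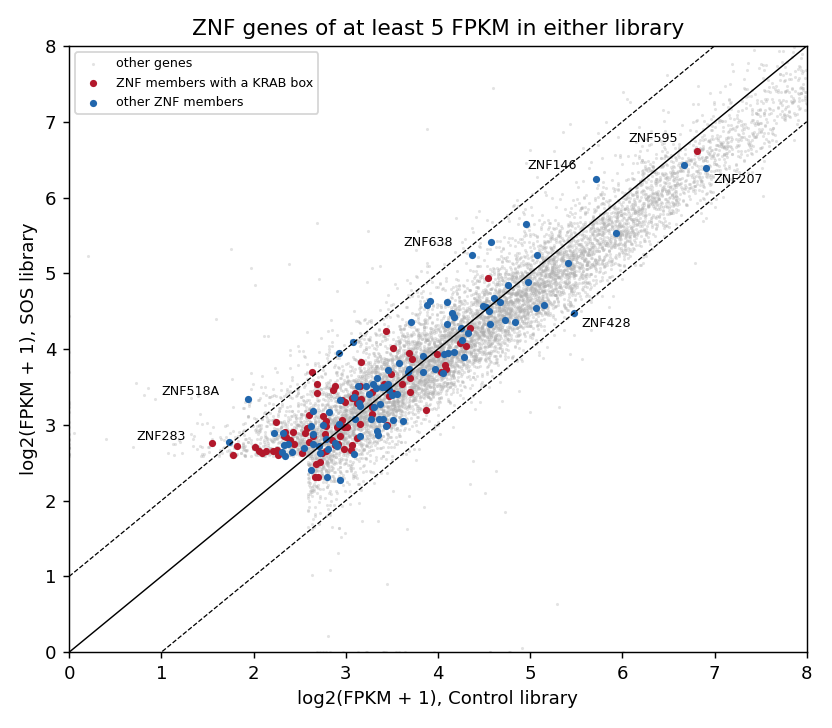
Level of each gene in the SOS library (vertical axis) against the Control library (horizontal axis), both as log2(FPKM + 1), for the 85 ZNF genes with a KRAB box (red), the other 102 (blue) and other genes of at least 5 FPKM in either library (grey). The solid line marks equal values and the dashed lines a 2-fold difference on this scale. The 6 genes on or above the upper dashed line include ZNF518A and ZNF283, and ZNF428 lies at the lower one. Axes stop at 8, above all ZNF genes.

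The size of the difference went with level. For the 47 ZNF genes with a mean of under 6 FPKM over both libraries, the median log2 ratio was 0.34, against 0.19 for 1048 other genes of that level. It was 0.10 for the 67 ZNF genes from 6 to under 10 FPKM, against 0.03 for 1784 other genes. From 10 to under 20 FPKM it was 0.03 for 49 ZNF genes, against -0.06 for 2542 others. At 20 FPKM or more it was -0.07 for 24 ZNF genes, against -0.29 for 4454 others.

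Set against other genes of equal mean level, in 20 bins, the ZNF genes were higher by a median of 0.07 on the log2 scale, with quartiles of -0.16 and 0.30, and 104 of 187 lay above their bin. This distance was smaller than that from all genes, and it was not uniform. In the lowest bin 23 ZNF genes had a median log2 ratio of 0.40, against 0.44 for other genes. In the next bin 21 had 0.21, against 0.10. The ZNF median was also lower than that of others in some bins further up, and higher in most. The level rule also shaped the low end. In 30 ZNF genes the minimum was reached in SOS only, which fixes them as higher there, and in 7 in Control only, while of all genes 678 reached it in SOS only and 346 in Control only. For the 150 that reached it in both libraries the median was 0.02, against -0.15 for 8991 genes. At the edge of the rule, ZNF148 stood just inside at 5.02 FPKM in SOS and 4.07 FPKM in Control, and ZNF430 at 5.07 FPKM in SOS and 2.42 FPKM in Control. ZNF500 stood just outside at 4.99 FPKM in SOS and 4.78 FPKM in Control, and ZNF688 at 4.43 FPKM in SOS and 4.95 FPKM in Control. Below the rule, the 204 ZNF names from 1 to under 5 FPKM had a median of 0.12, against 0.17 for 4069 other genes in that range.

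**Figure D2:**
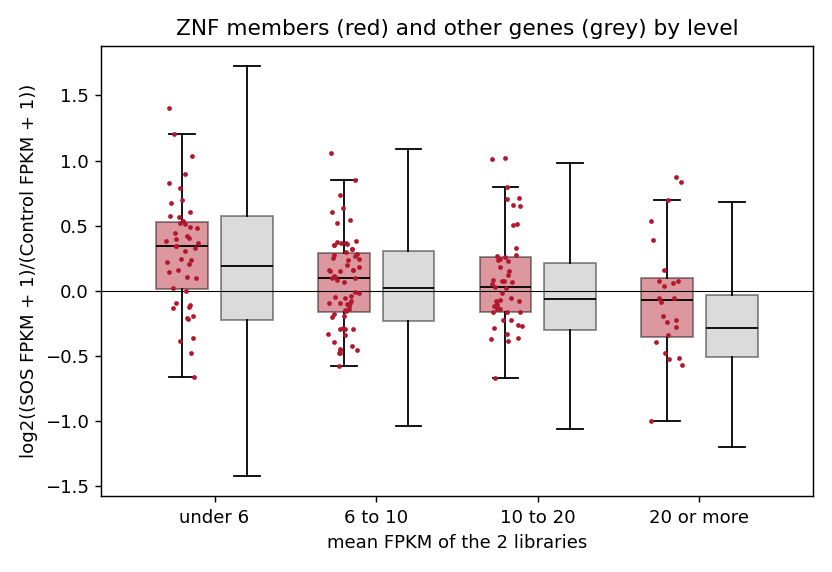
Log2 ratio of SOS over Control (vertical axis, pseudocount 1) by mean FPKM of the 2 libraries (horizontal axis) for ZNF genes (red, points are genes) and other genes (grey). Boxes show quartiles and medians, and whiskers reach the last value within 1.5 times the box, with farther values of other genes not drawn. The ZNF medians fall with level, from 0.34 under 6 FPKM to -0.07 at 20 FPKM or more. They lie above those of other genes in each of these wide classes, though not in every finer bin of level.

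The 6 ZNF genes past the size rule were ZNF518A, ZNF283, ZNF248, ZNF117, ZNF277 and ZNF711. ZNF518A (chr10:96129715-96205288) had 9.15 FPKM in SOS and 2.84 FPKM in Control, a 3.22-fold difference and a log2 ratio of 1.40. It overlaps BLNK, a gene read from the opposite strand, and the sources used here do not say whether reads were counted by strand, so reads of the pair cannot be told apart. ZNF283, a KRAB gene at chr19:43827292-43852017, had 5.75 FPKM in SOS and 1.93 FPKM in Control, a log2 ratio of 1.20. ZNF248, also with a KRAB box, had 11.96 FPKM in SOS and 5.21 FPKM in Control, a log2 ratio of 1.06. All 3 were higher in SOS, and ZNF283 had the least FPKM in Control of the 187.

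ZNF117 on chromosome 7 had 5.85 FPKM in SOS and 2.34 FPKM in Control, a log2 ratio of 1.04. ZNF277, whose protein pairs with the ribosomal protein RPS2, had 14.4 FPKM in SOS and 6.58 FPKM in Control, a log2 ratio of 1.02. ZNF711, an X-linked gene of intellectual disability whose protein works with the histone demethylase PHF8, had 16.04 FPKM in SOS and 7.44 FPKM in Control, a log2 ratio of 1.01. These 3 lie within 0.04 of the size rule. The next 6 by log2 ratio, none past the rule, were ZNF680, ZNF638, ZNF506, ZNF385A, ZNF430 and ZNF286A, at 0.90 to 0.80. Of the 12 highest, 6 carry a KRAB box.

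At the other end, ZNF428 (chr19:43607219-43619874) had 21.3 FPKM in SOS and 43.6 FPKM in Control, 2.04-fold lower in SOS, with a log2 ratio of -0.996 that falls just short of the rule. It overlaps SRRM5 on the opposite strand. The KRAB gene ZNF749 followed, with 8.16 FPKM in SOS and 13.6 FPKM in Control (log2 ratio -0.67). ZNF232, a gene with a SCAN box, a domain through which such proteins pair, had 3.84 FPKM in SOS and 6.66 FPKM in Control (log2 ratio -0.66). The remaining 9 of the 12 lowest ran from -0.57 to -0.45 and included ZNF143, ZNF622, ZNF207, ZNF410 and ZNF367, described by role below, with ZNF239, ZNF511, ZNF574 and ZNF200. ZNF749 alone of these 12 carries a KRAB box.

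**Figure D3:**
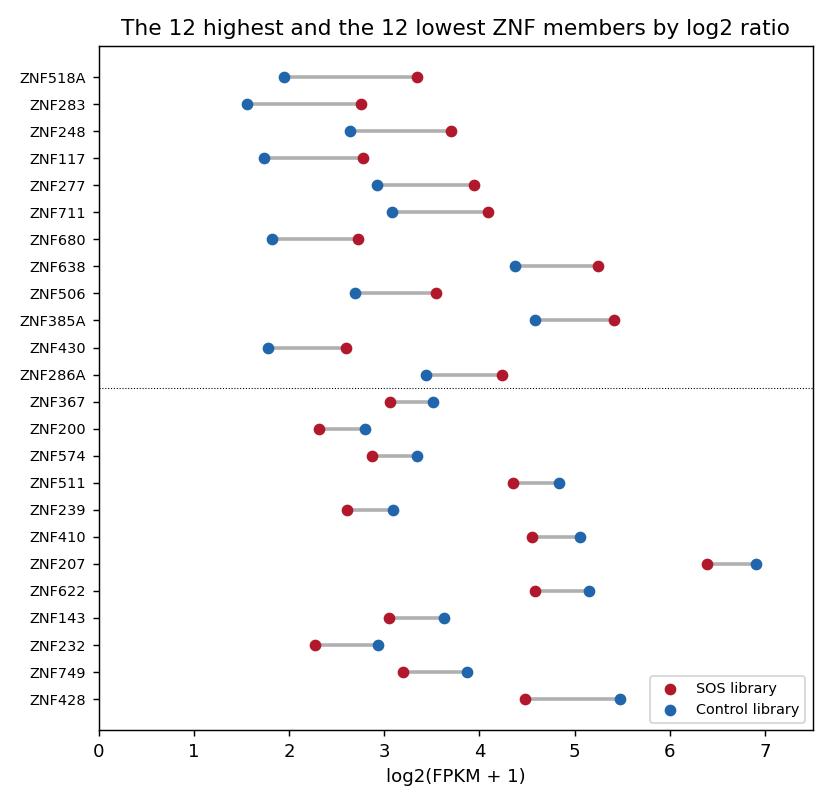
Level as log2(FPKM + 1) (horizontal axis) in the SOS library (red) and the Control library (blue) for the 12 ZNF genes with the highest log2 ratio, above the dotted line, and the 12 with the lowest, below it. The widest gap is that of ZNF518A, with a log2 ratio of 1.40, and the widest in the other direction is that of ZNF428, at -0.996.

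By level, the highest ZNF gene was the KRAB gene ZNF595, with 97.4 FPKM in SOS and 111 FPKM in Control. ZNF207 and ZNF706 came next by mean level, followed by ZNF146, ZNF593 and ZNF692. ZNF146 encodes a protein made almost wholly of fingers and had 75.2 FPKM in SOS and 51.5 FPKM in Control (log2 ratio 0.54). ZNF692, a repressor of gluconeogenic genes known from liver cells, had 49.2 FPKM in SOS and 29.9 FPKM in Control (log2 ratio 0.70). These 2 were the ones of the 6 that were higher in SOS.

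All 10 listed genes whose proteins act on RNA, ribosomes or the spindle met the level rule. Of these, 3 had a ratio above 0 and the median was -0.31, near the median of -0.29, with 22.5% above 0, over other genes of 20 FPKM or more. The median level of the list was 35.4 FPKM in SOS and 30.02 FPKM in Control. ZNF326 and ZNF346, with means of 11.9 and 16.2 FPKM, lie under 20 FPKM. Other genes from 10 to under 20 FPKM had a median of -0.06. ZNF622, which takes part in assembly of the large ribosomal subunit, had 23.0 FPKM in SOS and 34.6 FPKM in Control (log2 ratio -0.57). ZNF593, also a factor of large subunit assembly, had 45.4 FPKM in SOS and 60.0 FPKM in Control (log2 ratio -0.39). ZNF207, which brings the checkpoint protein BUB3 to kinetochores, had 82.7 FPKM in SOS and 119 FPKM in Control (log2 ratio -0.52).

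ZNF598, the ubiquitin ligase that senses collided ribosomes, had 34.0 FPKM in SOS and 41.5 FPKM in Control. ZNF330, a nucleolar protein, had 19.9 FPKM in SOS and 25.4 FPKM in Control. These 2 were lower in SOS, as was ZNF346, which binds double-stranded RNA, at 13.9 FPKM in SOS and 18.5 FPKM in Control. ZNF706 had 85.1 FPKM in SOS and 101 FPKM in Control. The 3 with a ratio above 0 were ZNF326, ZNF638 and ZNF385A. ZNF326, part of a complex that links RNA polymerase II to splicing, was nearly level at 11.9 FPKM in SOS and 11.8 FPKM in Control. ZNF638, which recruits the HUSH silencing complex to unintegrated retroviral DNA, had 36.9 FPKM in SOS and 19.7 FPKM in Control (log2 ratio 0.87). ZNF385A, a partner of p53 that also binds RNA, had 41.7 FPKM in SOS and 22.9 FPKM in Control (log2 ratio 0.84).

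Of 23 listed regulators of transcription without a KRAB box, 19 met the level rule, with a median log2 ratio of 0.10 and 11 above 0. ZNF217, ZNF292, ZNF462 and ZNF750 did not, with highest values from 0.033 to 4.91 FPKM. ZNF827, which brings the NuRD complex to telomeres, had 8.10 FPKM in SOS and 5.24 FPKM in Control (log2 ratio 0.54). ZNF395, an activator induced by hypoxia, had 23.5 FPKM in SOS and 16.2 FPKM in Control (log2 ratio 0.51). ZNF521, a cofactor of blood and mesenchymal progenitors, had 19.1 FPKM in SOS and 16.2 FPKM in Control. ZNF703, an oncogene of breast cancer, had 6.36 FPKM in SOS and 5.25 FPKM in Control.

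On the lower side, ZNF143 had 7.28 FPKM in SOS and 11.3 FPKM in Control (log2 ratio -0.57). Its close relative ZNF76 lay the other way, with 21.3 FPKM in SOS and 16.8 FPKM in Control (log2 ratio 0.33). ZNF410 had 22.4 FPKM in SOS and 32.4 FPKM in Control (log2 ratio -0.51). Its known target CHD4, a helicase of the NuRD complex, had 98.7 FPKM in SOS and 128 FPKM in Control (log2 ratio -0.38). Other genes of 20 FPKM or more had a median of -0.29, and whether CHD4 followed ZNF410 was not tested. ZNF367 had 7.33 FPKM in SOS and 10.4 FPKM in Control (log2 ratio -0.45). The remaining 11 of this list had log2 ratios between -0.14 and 0.28.

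Few listed KRAB proteins that silence transposons or imprinted genes, or are related to these, were expressed at this level. Of 12 listed, ZNF274 and ZNF263 met the rule, and the other 10, among them ZNF91 and ZNF93, had highest values from 0.064 to 3.02 FPKM. ZNF274, which guides SETDB1 to the 3′ ends of ZNF genes, had 9.69 FPKM in SOS and 10.4 FPKM in Control. ZNF263 had 12.3 FPKM in SOS and 16.05 FPKM in Control (log2 ratio -0.36). Both were lower in SOS by less than the size rule.

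Genes in which a letter pattern found a KRAB box were less often expressed at this level. The pattern matched at least 1 annotated coding transcript of 310 ZNF names. Of these, 85 met the level rule (27.4%), against 100 of 199 coding names without a match (50.3%). The pattern asks for E or Q followed by W, so a box without those letters would be missed. The genes called without a KRAB box may therefore include some that carry one. The median log2 ratio was 0.16 for KRAB genes, with 51 of 85 above 0, against 0.04 for those without, with 55 of 100 above 0. Relative to other genes of equal mean level the medians were 0.10 and 0.05, a smaller gap. It was also smaller among the 150 genes that reached the minimum in both libraries, at 0.07 with a KRAB box and 0.02 without. Among genes under 6 FPKM, the 28 with a KRAB box had a median of 0.41, and at 10 to under 20 FPKM the 19 with one had -0.08. The 12 genes with a SCAN box had a median of -0.02, with 6 above 0. Genes with 15 fingers or more (27) had a median of 0.23 and those with 10 to 14 (54) of 0.17, against -0.05 for 61 genes with 5 to 9 fingers and 0.02 for 43 with up to 4. These groups were not matched for level. In the same order, their median levels in SOS were 7.64, 6.85, 10.4 and 10.6 FPKM.

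Chromosome 19 held 55 of the 187 genes. Their median log2 ratio was 0.20, with 38 above 0, against 0.04 for 132 on other chromosomes, while 622 other genes of chromosome 19 had a median of -0.21. Relative to genes of equal mean level the chromosome 19 ZNF genes had a median of 0.10. KRAB genes there (34) had a median of 0.22 and genes without a match to the KRAB pattern (21) of 0.16. Elsewhere the medians were 0.15 for 51 KRAB genes and -0.02 for 79 without a match.

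**Figure D4:**
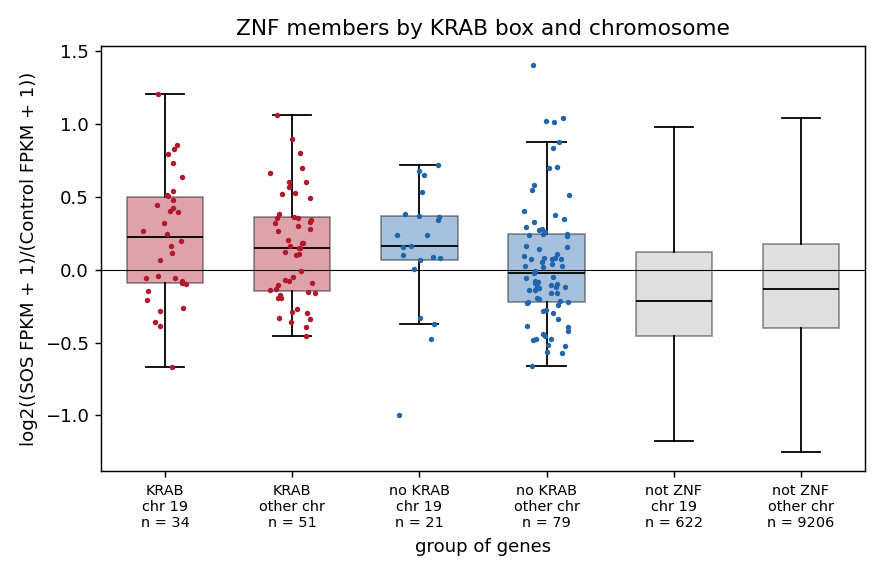
Log2 ratio of SOS over Control (vertical axis, pseudocount 1) for ZNF genes on chromosome 19 and elsewhere. Coding ZNF genes are split into those with a KRAB box found by the letter pattern (red) and those without a match (blue). Genes that are not ZNF members are grey. Boxes show quartiles and medians, whiskers reach the last value within 1.5 times the box, and points are ZNF genes. The medians run from 0.22 for KRAB genes on chromosome 19 to -0.21 for other genes of that chromosome.

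Runs of ZNF names on chromosome 19 less than 1 megabase apart (GENCODE 29 coordinates on GRCh38) allowed a local view. In the run at chr19:19668796-24129961, 7 of 9 ZNF genes were above 0, with a median of 0.24, and only 2 other genes of this level lay there. It holds the KRAB genes ZNF506, with 10.6 FPKM in SOS and 5.45 FPKM in Control, and ZNF254, with 7.21 FPKM in SOS and 3.74 FPKM in Control. In the run toward the end of the long arm (chr19:55476332-58481230), 11 ZNF genes had a median of 0.10, against -0.37 for 16 other genes between them. In the run at chr19:7069444-9793180, 9 ZNF genes had a median of 0.08, against -0.21 for 26 others. ZNF genes and other genes of a run were not matched for level. The median level in SOS was 7.40 FPKM for ZNF genes of the long-arm end run and 18.3 FPKM for those at chr19:7069444-9793180. It was 26.2 FPKM for the other genes of chromosome 19 as a whole. The log2 ratio fell with level, and how much of these gaps goes with level was not tested. The run at chr19:34542462-34964049 held 3 genes, ZNF302, ZNF599 and ZNF181, all above 0. Genes within a run are paralogues and neighbours, so they are not independent of each other.

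The difference varied with base composition, though not steadily. Median GC content of annotated transcripts was 47.8% for KRAB genes, 53.1% for genes without KRAB and 50.3% for other coding genes. Among other genes split by GC content into 5 equal groups, from low to high, the median log2 ratio was 0.01, -0.17, -0.23, -0.21 and -0.12. ZNF genes in the same ranges had medians of 0.29 (44 genes), 0.18 (36), -0.01 (38), -0.09 (29) and -0.05 (40). Both sets were highest at the lowest GC content, up to 42.6%, and not lowest at the highest. With bins of level and GC content together, the ZNF genes lay a median of 0.10 above other genes. With bins of level and transcript length together, the distance was 0.11.

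RefSeq promoter windows of 300 bases, 250 before and 50 after the start, matched 161 of the 187 genes with 218 windows. The motif bound by ZNF143, searched on either strand as ACTACA, then 2 bases of any kind, then TCC, was in 9.63% of these windows, against 11.54% of 338 windows of ZNF names below the level rule, 3.44% of windows of other genes of at least 5 FPKM and 1.89% of all windows. The 20 genes with it had a median log2 ratio of 0.32, and the 141 without it had 0.03. Of the 20, only ZNF74, ZNF32, ZNF584 and ZNF317 were lower in SOS. All others, among them ZNF277, ZNF283, ZNF286A and ZNF146, were higher there. Here and below, genes with and without a motif were not matched for level or GC content. The ETS motif CCGGAAG was in 30.7% of ZNF windows, against 36.7% of windows of ZNF names below the level rule, 18.2% of windows of other genes at this level and 10.3% of all windows. Genes with the ETS motif had a median of 0.08 and those without of 0.06. The YY1 motif ATGGCGG was in 10.6% of ZNF windows, the NRF1 motif GCATGCG in 7.80%, the E-box CACGTG in 7.34% and the hypoxia element ACGTGC in 4.59%, against 10.6%, 6.197%, 9.99% and 8.74% of windows of other genes at this level and 5.55%, 3.91%, 7.26% and 6.89% of all windows. The YY1 share equalled that of other genes at this level to 3 digits, and the shares of the E-box and the hypoxia element were below it. The 15 genes with the NRF1 motif had a median of 0.34 and the 10 with the hypoxia element of 0.30, against 0.07 for 22 with the YY1 motif and -0.05 for 15 with the E-box. The E-box and the hypoxia element can overlap. A letter match is not a bound site.

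The machinery that KRAB proteins call on lay mostly on the lower side, as did other genes of high level. Of 40 listed cofactors, 39 met the level rule, with a median log2 ratio of -0.21 and 9 above 0 (23.1%). The share above 0 was 37.9% over all 10015 genes and 22.5% over other genes of 20 FPKM or more. The median level of the cofactors was 40.2 FPKM in SOS and 56.4 FPKM in Control. Their share above 0 was thus near that of other genes of such a level. The median log2 ratio became 0.01 when both libraries were scaled to the same sum, and relative to genes of equal mean level it was -0.03. Past the size rule were 1 gene upward, against a background of 2.73%, and 1 downward, against a background of 1.26%. TRIM28, the corepressor itself, had 174 FPKM in SOS and 242 FPKM in Control (log2 ratio -0.48), and SETDB1 was nearly level at 27.3 FPKM in SOS and 27.9 FPKM in Control.

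ATRX, a chromatin remodeller of heterochromatin, had 21.8 FPKM in SOS and 9.36 FPKM in Control (log2 ratio 1.14). FAM208A, which encodes the HUSH subunit TASOR, had 19.1 FPKM in SOS and 11.7 FPKM in Control. DNMT3A, a DNA methyltransferase, had 7.71 FPKM in SOS and 4.72 FPKM in Control, and SMARCAD1, a remodeller that binds TRIM28, had 5.88 FPKM in SOS and 3.61 FPKM in Control. All 4 were higher in SOS. At the lower end, UHRF1, which guides DNA methylation to replicated DNA, had 38.8 FPKM in SOS and 79.0 FPKM in Control (log2 ratio -1.01). DNMT1, the methyltransferase it guides, had 123 FPKM in SOS and 186 FPKM in Control. GATAD2A and RBBP4 of the NuRD complex had 41.0 and 76.6 FPKM in SOS, against 60.8 and 113 FPKM in Control.

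Other families of zinc finger genes differed among themselves. Over 66 genes named ZBTB, ZSCAN, ZKSCAN, ZFP, ZC3H, ZDHHC or ZMYM the median log2 ratio was 0.08, with 40 above 0, and 0.01 relative to genes of equal mean level. The 18 ZBTB genes, which pair a BTB domain with fingers, had a median of 0.09, the 10 ZC3H genes 0.05, the 9 ZSCAN genes -0.13, the 5 ZFP genes 0.08, the 5 ZMYM genes 0.20 and the 2 ZKSCAN genes 0.39. The 17 ZDHHC genes, which encode enzymes that attach palmitate to proteins and bind no DNA, had -0.20.

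The authors' deposited table marked 3 ZNF genes as changed, against a background of 4.55% of all genes. They were ZNF518A and ZNF117, both higher in SOS, and ZNF428, lower in SOS. The log2 ratio in the authors' deposited table was computed on another quantity than FPKM, so it gives a second view of the same 2 libraries, not a replicate. After its offset was removed and its sign settled as described with the processing, the authors' deposited table placed 7 ZNF genes past the size rule upward, against a background of 3.09%, and 0 downward, with a median of 0.08. The sign and the offset were both taken from the FPKM ratio. A median near that by FPKM was therefore largely set in advance. Centred instead where the authors' p is highest, the same ratio placed 14 past the rule upward, against a background of 4.53%, with a median of 0.24. The ratios differed by at least 0.5 for 7 ZNF genes (3.74%), against 2.09% of all genes. ZNF283 had 1.20 by FPKM and 0.55 by the authors' deposited table. ZNF286A, which shares 64.1% of its 75-base words with other genes, had 0.80 by FPKM and 0.28 by the authors' deposited table. In the other direction, ZNF84 had 0.30 by FPKM and 0.93 by the authors' deposited table, and ZNF33B had 0.21 by FPKM and 0.83 there.

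**Figure D5:**
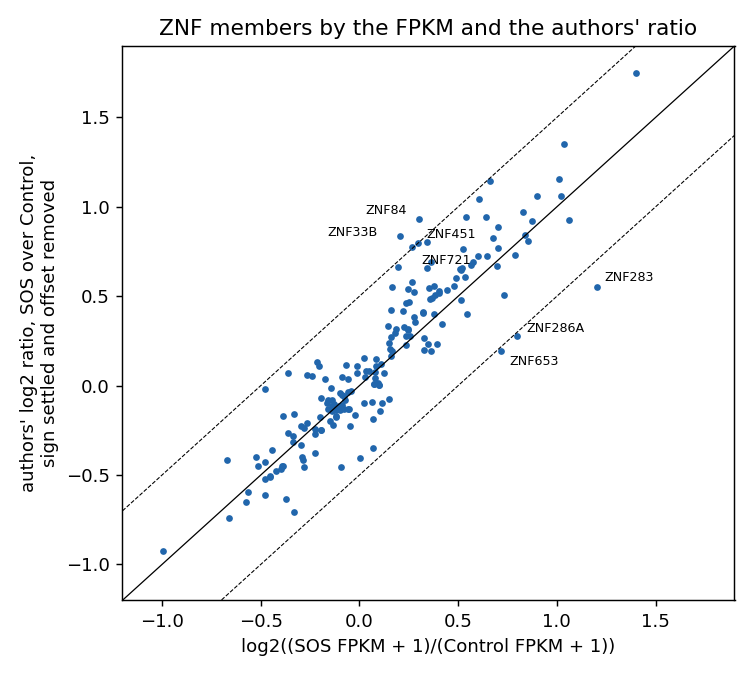
Log2 ratio of SOS over Control by FPKM with a pseudocount of 1 (horizontal axis) against the ratio from the authors' deposited table, with its sign settled and its offset removed (vertical axis), for the 187 ZNF genes. The solid line marks equal values and the dashed lines a gap of 0.5. The 7 named genes lie on or outside the dashed lines, and ZNF518A is highest on both axes.

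Related ZNF genes can share reads. In 157 of the 187 genes under 5% of 75-base words occurred in another annotated gene, and these had a median log2 ratio of 0.07, against 0.13 for the 30 with more. The 64 genes with exons that overlap those of a gene on the opposite strand had a median of 0.02, against 0.11 for the other 123. How the authors' counting split such reads is not given in the sources used here, so values of such genes are uncertain to that extent. Of the 51 ZNF genes named by rule, 19 are of this kind. Of the 6 past the size rule these are ZNF518A and ZNF248. ZNF410 shares 78.6% of its words, ZNF286A 64.1%, ZNF395 41.4%, ZNF511 22.5% and ZNF207 18.5%. ZNF428, ZNF143, ZNF146, ZNF232, ZNF593, ZNF598 and ZNF638 overlap a gene on the opposite strand, among others.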

How the data were processed

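RNA was measured in 2 libraries, 1 per group. Per the file headers, the authors deposited FPKM per gene for each library, their log2 ratio, a p-value, an adjusted p-value and a mark. The submitters' processing notes name the genome build GRCh38.p10 and the tools HISAT2, RSEM and Cufflinks; the sources used here give no versions, roles, test or strand use. The mark went with a deposited adjusted p-value under 0.001 and an absolute deposited log2 ratio of at least 1. No count is given, and depth was inferred from genes that seem to rest on 1 fragment, so no counting interval was computed.

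Of 58645 entries, 412 without a name and 27 with names turned into dates were left out, and FPKM were summed per name, which changed no ZNF value. The log2 ratio was taken with a pseudocount of 1, over genes of at least 5 FPKM in either library. The level comparison subtracts the median of non-ZNF genes in 20 bins of mean log2 level, and was checked on simulated data. The deposited log2 ratio was turned to SOS over Control. Its sign follows the FPKM while its size follows another quantity, so the sign nearer the FPKM ratio was taken and 0.16 added, a choice made after seeing the data. The 0.16 is the median distance of the deposited ratio from the FPKM ratio, over genes whose sign was not in doubt. Domains, lengths, GC content, overlaps and shared words come from GENCODE 29, matched for 554 of 556 ZNF names; annotated transcripts need not be those expressed. KRAB boxes were found in translated GENCODE coding sequences, where RefSeq proteins had been planned.

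Genes named are the 12 highest and 12 lowest by log2 ratio, the 6 highest by level, 2 on each side of the minimum, those of 3 role lists and the cofactors with the 4 highest and 4 lowest ratios plus TRIM28 and SETDB1. CHD4, the genes named within chromosome 19 runs and those with apart ratios were chosen after their values were seen. So were the genes named only for holding the ZNF143 motif. The members and lists were chosen with earlier results of these data known. Python 3.11.15 with pandas 2.3.3, numpy 2.4.6, Biopython 1.88 and matplotlib 3.10.9 was used. Alternatives covered the pseudocount, the minimum, the scaling, the ratio used, the bins, shared words and overlaps.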

Additional observations from a re-analysis of the deposited data

How the results depend on the processing

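The ZNF genes lay above other genes of equal mean level under all 17 alternatives. The median distance was 0.02 to 0.11, against 0.07 as reported. Not all 17 were able to move it. Centring shifts ZNF and other genes alike, so it could not change this distance. Keeping only names on 1 entry changed no ZNF value. The ZNF genes' own median log2 ratio of 0.08 stayed above 0 and moved by at least 0.1 under 4 alternatives. It was 0.30 with the libraries scaled to the same sum, 0.22 centred on the median of all genes, 0.23 by the ratio in the authors' deposited table as it stands, and 0.24 by that ratio with its sign settled and centred where the authors' p is highest. It was 0.02 to 0.11 under the other 10. The 6 genes past the size rule upward became 0 with a pseudocount of 5, 10 with a minimum of 1 FPKM, 3 with the minimum in both libraries, 12 with the same sum and 14 with the settled ratio centred where the authors' p is highest. The count past it downward was 1 with a pseudocount of 0.1. The gap between KRAB genes and others, 0.12, was 0.10 to 0.19 under 5 alternatives listed for it. Computed also under the others, it was 0.045 with the minimum in both libraries, 0.082 with a pseudocount of 5 and 0.088 without genes that overlap others on the opposite strand. The cofactor median reversed to 0.011 with the same sum. The other zinc finger families had 0.29 with the same sum and 0.23 by the ratio in the authors' deposited table. Centring shifts every ratio alike; scaling to the same sum also changed which genes met the minimum (205 ZNF genes). For the other moves the cause was not tested. No paired analysis was possible because there was 1 library per group. Low FPKM rest on few fragments, with an estimated 47.4 in SOS and 22.2 in Control for the lowest ZNF genes, and nothing here measures the spread between cultures.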

Other observations

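The sign of the log2 ratio in the authors' deposited table followed the FPKM even where its size did not. Turned to SOS over Control, it had a median of -0.18 over 178 genes with an FPKM log2 ratio from -0.02 to 0, and of 0.16 over 150 genes from 0 to 0.02. The sign was opposite to that of the FPKM ratio in 0 of 187 ZNF genes and in 68 of 10015 genes. In the authors' deposited table p was above 0.9 for 112 genes lower in SOS, with a median log2 ratio of 0.32 in its own direction. ZNF333, at 0.33 in the authors' deposited table, had a p of 0.924 there, while ZNF106, at -0.01, had a p of 2.05e-14.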
